A study of Mus musculus with 8 samples.

Results

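The genes described here are 5 genes of red blood cells, Hba-a1, Hbb-b1, Hbb-b2, Alas2 and Slc4a1, chosen by an exact match of the gene symbol in the deposited array table. Each has 1 probe, among 25697 probes and 18138 gene symbols in all, and 4 of the 5 passed the filter on dim probes. They were measured in ileal tumours of mice that carry the APCmin/+ mutation, a lesion of the tumour suppressor Apc. Mice of the VP16LXRa group (4 tumours) also carry VP16LXRa, the sterol receptor LXRα joined to the viral activation domain VP16, and those of the control group (4 tumours) carry VP16 alone. The mice of both groups were 8 months old and of a mixed C57BL/6J-FVBN strain, so the APCmin/+ allele, the VP16 domain, the age and the strain mix are shared by both groups. The sources used here do not give the promoter or cell type of the transgene, the sex of the mice or the number of tumours behind each RNA sample. The labels number the arrays VP16LXRa 5 to 8 and control 1 to 4, and where nothing says that each is a separate animal, p-values measure only the spread between these samples.

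Red blood cells lose their nucleus as they mature and keep a store of messenger RNA for a short time as reticulocytes. Most of that RNA encodes haemoglobin, a tetramer of α-globin and β-globin chains that each hold a haem group. Alas2 is the first enzyme of haem synthesis in red cell precursors, and Slc4a1 (band 3) is the anion exchanger of the red cell membrane. Outside the blood-forming organs, circulating red cells are the usual carriers of these transcripts. In RNA of whole tumours, more red cells and more transcript per red cell cannot be told apart.

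Hba-a1 and Alas2 were high and low on the same tumours, and the stretch before the start of each gene is shown so that the letters known from red cell promoters can be seen. RefSeq's promoter table for GRCm38.p6 matched these 2 of the 5 genes, and Hbb-b1, Hbb-b2 and Slc4a1 were not matched. The 250 bases before the start are printed 5′ to 3′, and capitals mark 4 motifs on either strand: GATAA, the core bound by the red cell factor GATA1, CACCC, that bound by KLF1, the CCAAT box and the TATAA box. The Hba-a1 window lies at chr11:32283422-32283671 and the Alas2 window at chrX:150547167-150547416, both on the plus strand.
Hba-a1: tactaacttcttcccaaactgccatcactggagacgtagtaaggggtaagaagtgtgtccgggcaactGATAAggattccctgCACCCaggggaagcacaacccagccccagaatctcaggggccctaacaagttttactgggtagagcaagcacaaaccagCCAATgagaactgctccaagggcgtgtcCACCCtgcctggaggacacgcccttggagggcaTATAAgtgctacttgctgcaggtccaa
Alas2: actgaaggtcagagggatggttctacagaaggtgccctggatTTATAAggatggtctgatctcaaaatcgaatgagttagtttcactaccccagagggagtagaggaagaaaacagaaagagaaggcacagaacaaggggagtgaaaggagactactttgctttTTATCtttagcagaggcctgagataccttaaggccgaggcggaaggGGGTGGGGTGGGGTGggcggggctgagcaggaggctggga
Both windows hold GATAA once, as do 22.6% of the 32851 promoters in the table. CACCC was found 2 times for Hba-a1 and 3 times for Alas2, in Alas2 on the minus strand, and is in 52% of promoters. Hba-a1 also holds CCAAT once (33.8% of promoters) and TATAA once, at 27 to 23 bases before the start (22.8% of promoters). Alas2 holds no CCAAT, and its 2 TATAA matches are the overlapping forward and reverse reading of one stretch, at 208 to 203 bases before the start. All 4 motifs are in 0.968% of promoters, Hba-a1 among them. The windows of Hba-a1 and of Hba-a2, the second α-globin gene, share an unbroken run of 247 of 250 bases, and the 2 transcripts are near-identical copies, so the Hba-a1 probe may read both. Which of the 2 it reads was not tested.

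Between 49.0% and 54.7% of probes were detected per array, with median scanner signals from 134 to 165. VP16LXRa 5 stood apart, with a median correlation of 0.869 with the other arrays over the tested probes, against 0.939 to 0.942 in the other VP16LXRa arrays. Control 4 was at 0.910, against 0.932 to 0.933 in the other controls. The differences of the 4 tested red cell genes are therefore also given without each of these arrays. Markers of the labelled tissue were present: Krt8, an epithelial keratin, was at a log2 level of 15.18 ± 0.14 in VP16LXRa and 15.26 ± 0.16 in control tumours (SD, n = 4 each), and Lgals4, an intestinal lectin, at 15.15 ± 0.02 in VP16LXRa and 15.21 ± 0.06 in control tumours (SD, n = 4 each). Fabp2, listed with them as a gene of the intestinal epithelium, was detected on no array.

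The comparison asks whether tumours with the activated receptor held more or less red cell RNA than tumours with VP16 alone. All 4 tested genes had a higher mean in VP16LXRa tumours, by between 1.30 and 1.81 on the log2 scale, and the groups overlapped for each of them. The tumours did not divide by genotype: VP16LXRa 5, 6 and 7 and control 4 had the 4 highest levels of each of the 4 genes, while VP16LXRa 8 lay with controls 1, 2 and 3. None of the 4 passed the adjusted threshold of 0.05. Their median difference was 1.65, against 0.0018 over all 13426 tested probes.

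**Figure D1:**
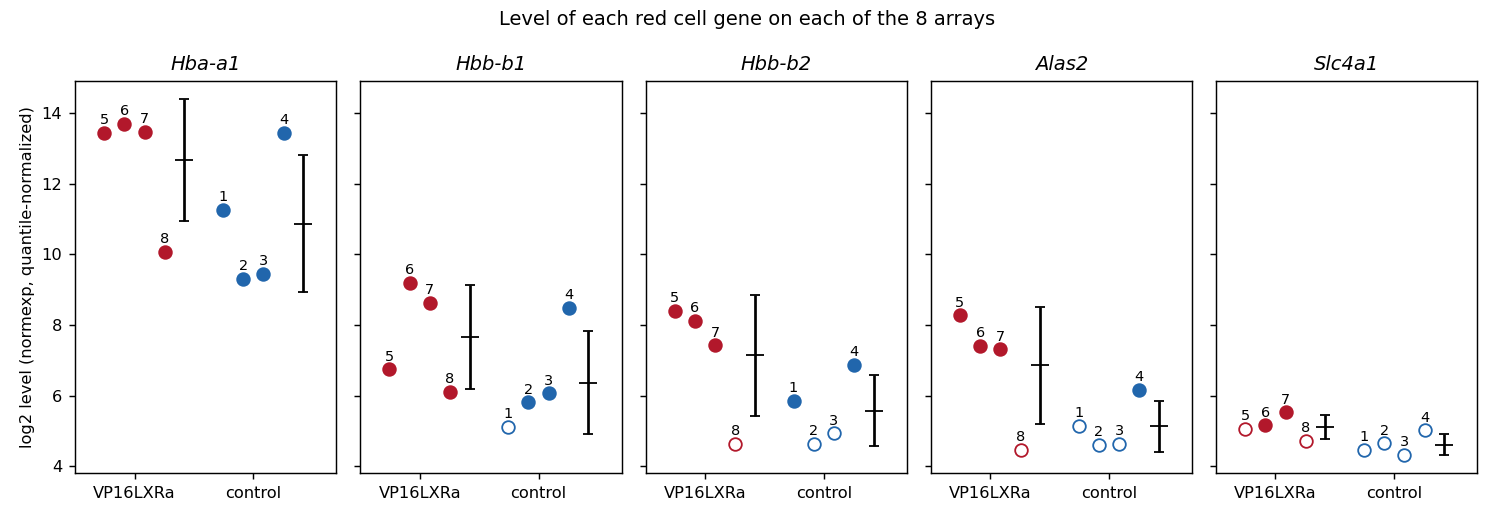
Log2 level (y axis, after background correction and quantile normalization) of the 5 red cell genes on each array, with VP16LXRa tumours (red) left of control tumours (blue) and array numbers above the points. Filled points were detected at p under 0.05, open points were not, and black bars give the mean ± SD (n = 4); VP16LXRa 8 lies with controls 1 to 3, and control 4 with VP16LXRa 5 to 7.

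Hba-a1, the adult α-globin gene, was the only one of the 5 detected on all 8 arrays. Its scanner signal was 8951, 15749.8, 10867 and 1299 in VP16LXRa 5, 6, 7 and 8, and 2276, 678, 1063 and 10097 in controls 1, 2, 3 and 4. The highest signal of any probe on any array was 50137, so Hba-a1 was below the top of the scale throughout. After normalization its log2 level was 13.44, 13.70, 13.49 and 10.08 in VP16LXRa 5, 6, 7 and 8, against 11.25, 9.31, 9.46 and 13.46 in controls 1, 2, 3 and 4. VP16LXRa 5, 6 and 7 were thus close to one another and to control 4, with VP16LXRa 8 below control 1. From the lowest to the highest array the gene spanned 4.39 on the log2 scale, or 21.0-fold. The mean was 12.68 ± 1.74 in VP16LXRa tumours and 10.87 ± 1.94 in control tumours (SD, n = 4 each). The difference was 1.81 (SE 1.06, 95% interval -0.59 to 4.2, adjusted p = 0.998 with limma), a 3.50-fold difference that was within the spread between tumours of a group.

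Hbb-b1 and Hbb-b2 encode the adult major and minor β-globin chains. These names belong to the haplotype in which both genes are distinct, and C57BL/6 mice carry the other haplotype, with the genes Hbb-bs and Hbb-bt, so in a mixed strain the probes may read more than the named gene. No probe in the table carries the symbols Hbb-bs or Hbb-bt. What each β-globin probe reads in each mouse was not tested.

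Hbb-b1 was detected on 7 arrays, all but control 1. Its scanner signal was 178, 807, 454 and 190.1 in VP16LXRa 5, 6, 7 and 8, and 142, 165, 199 and 499 in controls 1, 2, 3 and 4. Its log2 level was 6.74, 9.19, 8.63 and 6.10 in VP16LXRa 5, 6, 7 and 8, against 5.11, 5.80, 6.06 and 8.49 in controls 1, 2, 3 and 4. VP16LXRa 6 and 7 and control 4 were high and the other 5 arrays low, and all 4 VP16LXRa tumours were above controls 1 to 3. The mean was 7.67 ± 1.48 in VP16LXRa tumours and 6.37 ± 1.47 in control tumours (SD, n = 4 each), a difference of 1.30 (SE 0.86, 95% interval -0.64 to 3.23, adjusted p = 0.998 with limma).

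Hbb-b2 was detected on 3 of 4 VP16LXRa and 2 of 4 control arrays. Its scanner signal was 349, 452, 261 and 134 in VP16LXRa 5, 6, 7 and 8, and 161, 131, 157 and 252 in controls 1, 2, 3 and 4. Its log2 level was 8.39, 8.11, 7.42 and 4.64 in VP16LXRa 5, 6, 7 and 8, against 5.84, 4.63, 4.93 and 6.87 in controls 1, 2, 3 and 4. VP16LXRa 5 had the highest Hbb-b2 level of the 8 arrays, whereas its Hbb-b1 level was the fourth. The mean was 7.14 ± 1.72 in VP16LXRa tumours and 5.57 ± 1.01 in control tumours (SD, n = 4 each), a difference of 1.57 (SE 0.82, 95% interval -0.28 to 3.42, adjusted p = 0.998 with limma).

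Alas2, the red cell form of the first haem synthesis enzyme, was detected on VP16LXRa 5, 6 and 7 and on control 4. Its scanner signal was 332, 329, 251 and 125 in VP16LXRa 5, 6, 7 and 8, and 143, 130.2, 146 and 198 in controls 1, 2, 3 and 4. Its log2 level was 8.27, 7.41, 7.31 and 4.45 in VP16LXRa 5, 6, 7 and 8, against 5.13, 4.61, 4.62 and 6.15 in controls 1, 2, 3 and 4. VP16LXRa 5, 6 and 7 were above every control, and VP16LXRa 8 was the lowest of the 8 arrays, not above background. The mean was 6.86 ± 1.66 in VP16LXRa tumours and 5.13 ± 0.73 in control tumours (SD, n = 4 each), a difference of 1.73 (SE 0.75, 95% interval 0.04 to 3.43, adjusted p = 0.998 with limma). Of the 4 genes Alas2 was the only one with an unadjusted p under 0.05, at 0.0458 with limma.

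Slc4a1, the band 3 anion exchanger, was near background on every array and was not tested. Its scanner signal was 131, 161, 154 and 137 in VP16LXRa 5, 6, 7 and 8, and 121, 132, 125 and 148 in controls 1, 2, 3 and 4. It was detected on VP16LXRa 6 and 7 and on no control array. The log2 levels were 5.11 ± 0.33 in VP16LXRa and 4.61 ± 0.30 in control tumours (SD, n = 4 each), and since it was not above background in any control no fold is given.

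Across the array, 0 of the 13426 tested probes (0%) passed the adjusted threshold with limma, and 340 had an unadjusted p under 0.05 in either direction. The count of 0 of 4 red cell genes past the threshold is read against that. An unadjusted p under 0.05 with a higher mean in VP16LXRa tumours was found for 1.72% of probes and for 1 of the 4 genes, and a higher mean of any size for 50.2% of probes and for 4 of 4. A difference of at least 1 was found for 1.56% of probes and for 4 of 4 genes. These 4 probes share the same 8 RNA samples and, as red cell transcripts, are not independent of each other. Hbb-b2 and Alas2 passed the filter through the arrays on which they were high. The spread between tumours of a group was also large for these genes. The pooled SD within groups was 1.84 for Hba-a1, 1.47 for Hbb-b1, 1.41 for Hbb-b2 and 1.28 for Alas2, against a median of 0.44 over tested probes. Between 96.0% and 99.2% of tested probes had a smaller SD than each of these genes.

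**Figure D2:**
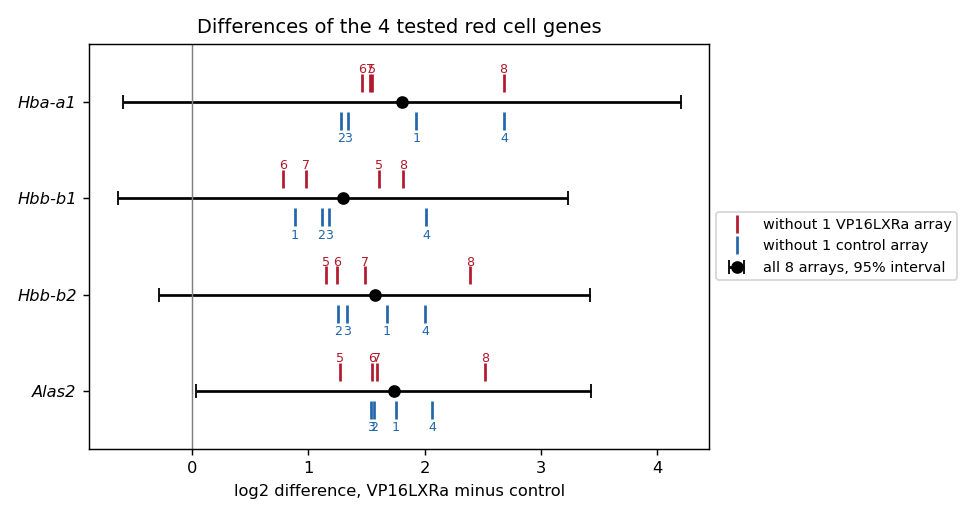
Log2 difference (x axis, VP16LXRa minus control) of the 4 tested red cell genes, with black points and 95% intervals from all 8 arrays. Ticks give the difference without 1 VP16LXRa array (red) or 1 control array (blue), numbered by the array left out; the largest value of Hba-a1 comes without control 4 and that of Alas2 without VP16LXRa 8.

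Single arrays set the size of the differences. Without VP16LXRa 8, the difference was 2.68 for Hba-a1, 1.81 for Hbb-b1, 2.39 for Hbb-b2 and 2.52 for Alas2, with adjusted p of 0.427 for Alas2 and 0.962 for the other 3 with limma. Without control 4 it was 2.69 for Hba-a1, 2.01 for Hbb-b1, 2.01 for Hbb-b2 and 2.07 for Alas2, each with an adjusted p of 0.835 with limma. Without VP16LXRa 5, the array that stood apart, it was 1.55 for Hba-a1, 1.61 for Hbb-b1, 1.15 for Hbb-b2 and 1.27 for Alas2. The difference of Hbb-b1 was 0.79 without VP16LXRa 6. Without background correction the differences of the dimmer probes shrank, to 0.68 for Hbb-b1, 0.79 for Hbb-b2 and 0.77 for Alas2, against 1.72 for Hba-a1, and with array weights that of Hbb-b1 was 2.46.

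Other genes of red cells were looked at by list. Of 55 such genes on the array besides these 5, 31 were tested and 13 were detected on no array. Among the 31, 0 passed the threshold, 21 had a higher and 10 a lower mean in VP16LXRa tumours, and the median difference was 0.05. The median differences were 0.05 for 10 haem synthesis genes, 0.22 for 8 genes of the red cell membrane and skeleton, 0.03 for 11 of its cytoplasm and -0.33 for 3 erythroid regulators. The median of the regulators was -0.04 without control 2. Fech, the last enzyme of haem synthesis, is counted in 2 of these lists.

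The other globin genes of the red cell line on the array were not tested. Hbb-bh1, Hbb-y and Hbq1 were detected on no array, and Hba-x on 1 VP16LXRa array. The red cell genes Epb4.2, Rhd, Kel, Add2, Hemgn, Bpgm, Abcb10, Klf1 and Tal1 were also detected on no array. Eraf, the chaperone of free α-globin, chosen after its values were seen, was detected on VP16LXRa 6, 7 and 8 and on no control array. Its log2 level was 4.67, 5.45, 5.27 and 5.17 in VP16LXRa 5, 6, 7 and 8, and 4.84, 4.40, 4.97 and 4.98 in controls 1, 2, 3 and 4, so its arrays did not divide as those of the 4 tested genes did.

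The haem synthesis enzymes that all cells use were read beside the red cell form. Alas1, the ubiquitous counterpart of Alas2, was at 12.69 ± 0.24 in VP16LXRa and 12.99 ± 0.54 in control tumours (SD, n = 4 each), a difference of -0.30 (SE 0.30). Alad, the next enzyme of the pathway, differed by -0.41 (SE 0.25). The haem synthesis score, the mean of the tested genes' deviations from their 8-array means, had a range of -0.07 to 0.04 over the VP16LXRa arrays and of -0.12 to 0.08 over the control arrays. The same score over the 4 red cell genes was 1.43, 1.82, 1.43 and -1.47 in VP16LXRa 5, 6, 7 and 8, and -0.95, -1.70, -1.52 and 0.96 in controls 1, 2, 3 and 4.

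Of the membrane and skeleton genes, 7 of 8 had a higher mean in VP16LXRa tumours. Aqp1, a water channel of red cells and endothelium, differed by 0.30 (SE 0.45), Xk by 0.02 (SE 0.27) and Epb4.1, protein 4.1, by -0.41 (SE 0.47). The lower mean of Epb4.1 rests on VP16LXRa 5, at 4.58. Its other VP16LXRa arrays were at 6.31 to 6.88 and the controls at 6.12 to 6.83. Of the cytoplasm genes, Prdx2, a peroxidase, differed by 0.16 (SE 0.28) and Bnip3l, which serves the removal of mitochondria from reticulocytes, by 0.14 (SE 0.20). Of the regulators, the transferrin receptor Tfrc differed by 0.02 (SE 0.20), Lmo2 by -0.33 (SE 0.63) and Lyl1 by -0.71 (SE 0.55). Control 2 was the highest array for Lmo2, at 9.98, and for Lyl1, at 7.53. The other controls were at 6.67 to 8.54 for Lmo2 and at 4.74 to 5.51 for Lyl1. None of the genes named here passed the threshold.

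**Figure D3:**
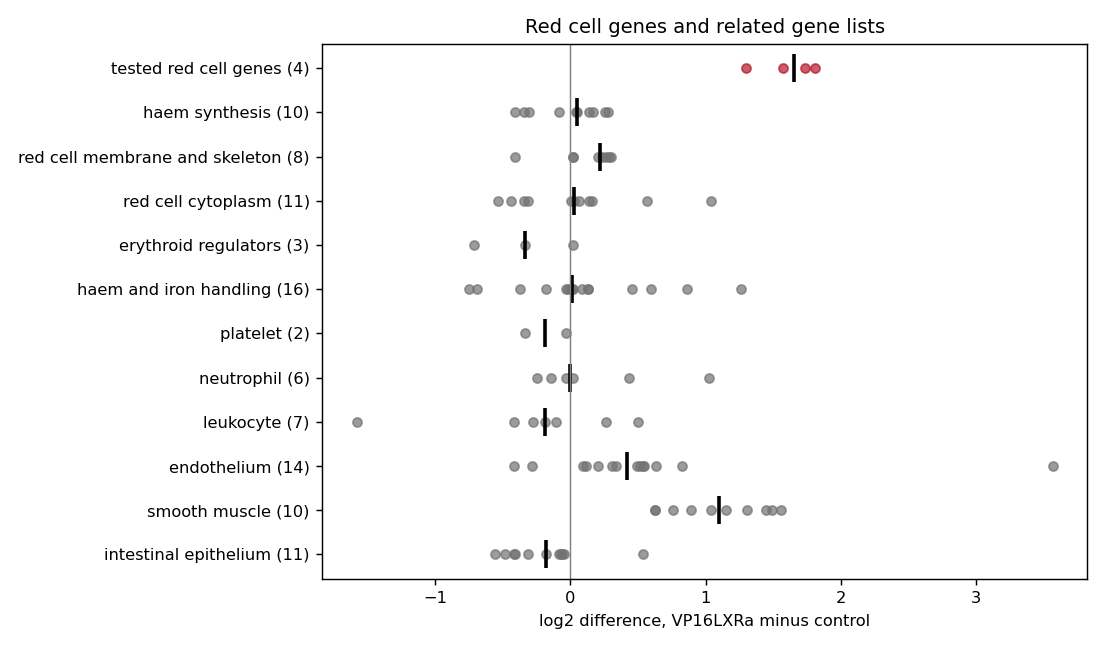
Log2 difference (x axis, VP16LXRa minus control) of the 4 tested red cell genes (red) and of the tested genes of 11 related lists (grey), 1 point per gene, with a black tick at each median and the number of genes in brackets. The 4 red cell genes lie between 1.30 and 1.81, while the medians of the haem synthesis, membrane and cytoplasm lists lie between 0.03 and 0.22.

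Markers of other blood and vessel cells were set beside the red cell genes, array by array. The neutrophil score was 0.81, 0.89, 0.32 and -1.68 in VP16LXRa 5, 6, 7 and 8, and 0.03, -1.44, -1.22 and 2.26 in controls 1, 2, 3 and 4. Control 4 was thus the highest and VP16LXRa 8 the lowest, with controls 2 and 3 next to it. The tested list held 6 of 11 genes on the array, and its defining granule and receptor genes Ngp, Camp and Il8rb were detected on no array. Ltf, lactoferrin, which epithelia also make, was at 8.67, 10.59, 11.43 and 6.49 in VP16LXRa 5, 6, 7 and 8, and at 6.92, 7.00, 7.48 and 11.68 in controls 1, 2, 3 and 4, a difference of 1.02 (SE 1.29). Lcn2, lipocalin 2, also made by inflamed epithelium, was at 9.68, 9.24, 9.15 and 5.81 in VP16LXRa 5, 6, 7 and 8, and at 9.08, 6.27, 6.66 and 12.84 in controls 1, 2, 3 and 4, a difference of -0.25 (SE 1.43). Over the list 3 genes had a higher and 3 a lower mean in VP16LXRa tumours, with a median of -0.004.

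The endothelial score was 0.47, 0.49, 0.59 and -0.48 in VP16LXRa 5, 6, 7 and 8, and -0.19, -0.06, -1.17 and 0.36 in controls 1, 2, 3 and 4. The 4 arrays with the highest red cell levels were therefore also the 4 with the highest endothelial scores. Of 14 tested endothelial genes 12 had a higher mean in VP16LXRa tumours, with a median of 0.42, which was 0.0003 without control 3, and 0 passed the threshold. Egfl7 differed by 0.31 (SE 0.55), Plvap, a protein of fenestrated capillaries, by -0.29 (SE 0.58) and Sox17, an arterial transcription factor, by 3.57 (SE 0.93, adjusted p = 0.998 with limma). Sox17 was at 10.60, 9.73, 10.47 and 7.48 in VP16LXRa 5, 6, 7 and 8, and at 4.43, 4.70, 6.77 and 8.10 in controls 1, 2, 3 and 4. It is named for the smallest p of its list, and its difference was far above the list median of 0.42. Which cells of the tumours made Sox17 was not tested. The part of vessels or of neutrophils in the red cell levels was not tested.

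**Figure D4:**
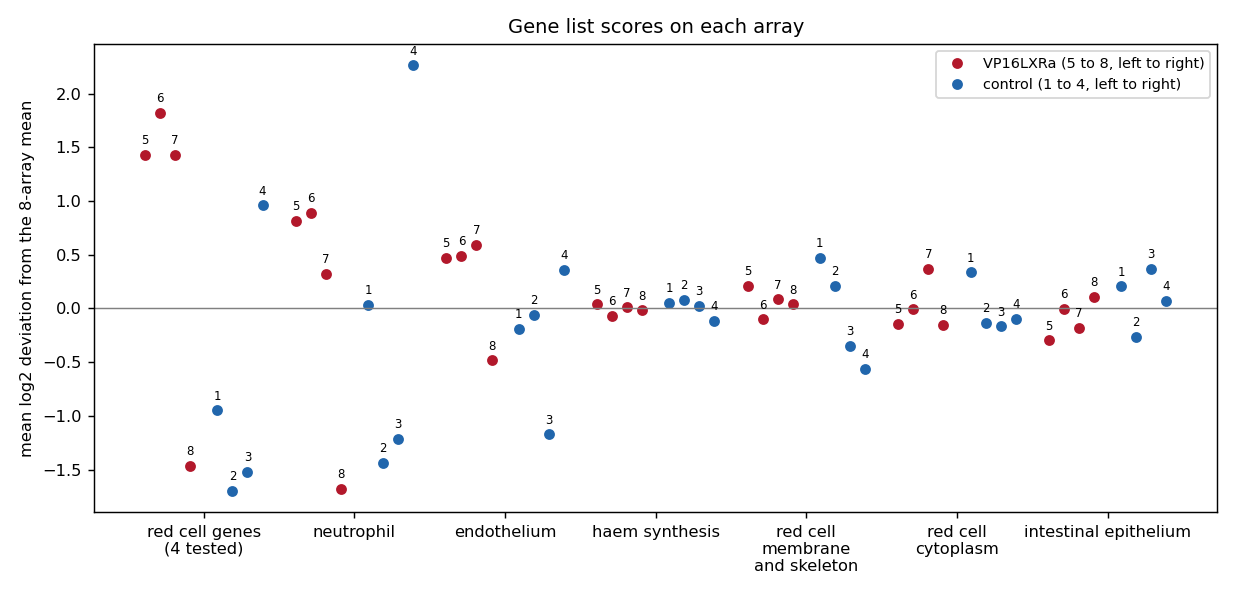
Mean log2 deviation from the 8-array mean (y axis) for the 4 tested red cell genes and for 6 gene lists on each array, with VP16LXRa arrays 5 to 8 (red) left of control arrays 1 to 4 (blue). VP16LXRa 8 is low and control 4 high for red cell, neutrophil and endothelial genes, while haem synthesis scores stay between -0.12 and 0.08.

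Platelets circulate with red cells. Of 10 platelet genes on the array 2 were tested, Gp1bb with a difference of -0.03 (SE 0.35) and Itga2b with -0.34 (SE 0.42), and Gp5, Tubb1 and Treml1 were detected on no array. Gp1bb was at 9.78 in VP16LXRa and 9.81 in control tumours, far above Itga2b at 5.23 and 5.57. Of untested probes, both of Ppbp were detected on 2 VP16LXRa arrays and no control array. The untested Itga2b probe was detected on 2 control arrays and no VP16LXRa array. Platelet content is thus not read from this list. Of 7 tested leukocyte genes 2 had a higher mean in VP16LXRa tumours, with a median of -0.19. Laptm5 differed by -0.42 (SE 0.43), Cd3g of T cells by 0.50 (SE 0.48) and Cd79b of B cells by -1.58 (SE 0.96). Control 2 had the highest Cd79b level, at 11.54, against 6.62 to 8.46 in the other controls. All 10 tested smooth muscle genes had a higher mean in VP16LXRa tumours, with a median of 1.10, or 0.41 without control 3. Acta2 differed by 1.04 (SE 0.83), Actg2 by 1.56 (SE 1.02) and Cnn1 by 0.63 (SE 0.33). The smooth muscle score had a range of -0.54 to 0.95 over 7 arrays and was lowest, at -2.73, for control 3, so it did not order the arrays as the red cell genes did. Of 11 tested epithelial genes 10 had a lower mean in VP16LXRa tumours, with a median of -0.18 and, for Cdx2, a difference of -0.56 (SE 0.35). None of these genes passed the threshold.

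Genes that handle haem and iron, including their uptake, storage, export and regulation, were set beside the globins as well. Of 16 tested, 10 had a higher and 6 a lower mean in VP16LXRa tumours, with a median of 0.02, and 0 passed the threshold. Cd163 and Hpx of this list did not pass the filter on dim probes. The breakdown of red cells was not tested. Fth1, the ferritin heavy chain, was at 15.02 ± 0.13 in VP16LXRa and 15.19 ± 0.21 in control tumours (SD, n = 4 each), a difference of -0.18 (SE 0.20). Slc40a1, the iron exporter ferroportin, differed by -0.75 (SE 0.49). Bach1, a repressor that haem inactivates, was at 9.12, 9.04, 8.98 and 9.23 in VP16LXRa 5, 6, 7 and 8, and at 8.36, 8.67, 7.73 and 8.15 in controls 1, 2, 3 and 4. The difference was 0.87 (SE 0.24, adjusted p = 0.998 with limma). Its groups did not overlap, as was the case, with VP16LXRa higher, for 1.01% of all tested probes, and it is named for the smallest p of its list. Its order of arrays was not that of the red cell genes, since VP16LXRa 8 was its highest and control 3 its lowest.

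The genes whose pattern over the 8 arrays was most like that of the red cell genes came from none of these lists. Likeness is Pearson's r between a probe and the score of the 4 red cell genes, and, since the arrays lie in a high and a low set of 4, it mainly reads that division and carries no p. The 10 highest were Piwil2 (r = 0.972), Tesk1 (0.961), Zfhx3 (0.960), Tuba6 (0.959), Sirt6 (0.956), Prpf38a (0.952), Ccnd1 (0.951), Abhd7 (0.951), Thyn1 (0.951) and LOC100041004 (0.949). Ccnd1, the G1 cyclin D1, was at 12.34, 12.41, 12.32 and 11.51 in VP16LXRa 5, 6, 7 and 8, and at 11.96, 11.53, 11.70 and 12.46 in controls 1, 2, 3 and 4. Zfhx3, a transcription factor, spanned 2.53 on the log2 scale over the arrays and Tesk1, a kinase, 3.65, against 0.50 for Prpf38a, a splicing factor. Piwil2 and Abhd7 were each detected on 3 VP16LXRa arrays and 1 control array. None of the 10 passed the threshold between the groups.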

How the data were processed

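RNA of 8 ileal tumours was measured on Illumina arrays after extraction with QIAzol and biotin labelling of cRNA, per the labels' protocols. The deposited table gives, per probe and array, an average bead signal, an intensity on a linear scale with no sign of background subtraction or normalization, and a detection p-value, per the file headers. GenomeStudio was used, with no version stated, per the submitters' processing notes. The authors' second table holds background-subtracted intensity values of the same arrays, judged from its values below 0. The medians, from 20.1 to 20.4, are close but not equal, so the arrays appear normalized to one another by a method the values do not identify. That table served as an alternative, floored at 16.

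Here limma 3.58.1 (with statmod 1.5.0, under R 4.3.3) applied normexp, for which it inferred the negative controls from detection p-values, added an offset of 16, quantile-normalized the arrays and took log2. Probes detected at p under 0.05 on at least 4 of 8 arrays were tested by lmFit and eBayes; the two-sided p-values were adjusted by Benjamini-Hochberg over all 13426 tested probes, at a threshold of 0.05. Differences are VP16LXRa minus control. Genes of a list were read by their tested probe with the highest mean. The genes and the lists were chosen with earlier results of these data known. All probes of the 5 genes are named; of each list, the 2 with the highest mean and the 1 with the smallest p; and the 10 probes most like the red cell score. Some list genes are not reported here. The fit was tested on simulated data. Alternatives covered the background correction, offset, normalization, filter, array weights, variance prior, threshold, choice of probe and each array left out. Symbols are those of the table, and the number of arrays limits the precision.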

Additional observations from a re-analysis of the deposited data

Results flagged for a closer look

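A tumour far from the other 3 of its group was looked for in 32 sets of values, and 5 sets held one, where chance gives about 1.6. The sets come from the same 8 arrays and are not independent, so the 5 cannot be read as an excess over 1.6. Hba-a1 was at a log2 level of 10.08 in VP16LXRa 8, against 13.44 to 13.70 in the other VP16LXRa tumours. The endothelial score was -0.48 in VP16LXRa 8, against 0.47 to 0.59 in the other VP16LXRa tumours. The red cell cytoplasm score was 0.34 in control 1, against -0.17 to -0.10 in the other controls. The median correlation with the other arrays was 0.869 in VP16LXRa 5, where VP16LXRa 6, 7 and 8 had 0.939 to 0.942. It was 0.910 in control 4, against 0.932 to 0.933 in the other controls.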

How the results depend on the processing

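The differences of Hba-a1, Hbb-b1, Hbb-b2 and Alas2 stayed above 0 and short of the adjusted threshold in every alternative in which they were tested, 18 for Hba-a1 and 17 for each of the other 3, which were not tested among probes detected on all 8 arrays. With 1 array left out, Hba-a1 ranged from 1.28 to 2.69, Hbb-b1 from 0.79 to 2.01, Hbb-b2 from 1.15 to 2.39 and Alas2 from 1.27 to 2.52. Over the other alternatives they ranged from 1.72 to 2.36, 0.68 to 2.46, 0.79 to 1.90 and 0.77 to 2.16, in that order. The smallest adjusted p with limma was 0.760 for Hba-a1 and Hbb-b2 and 0.752 for Hbb-b1, all with array weights, and 0.427 for Alas2, without VP16LXRa 8. Of all tested probes, 2 passed with array weights, 1 with cyclic loess, 1 at a threshold of 0.1 and between 0 and 2 with 1 array left out; none was a red cell gene or a tested list gene, and the cause was not tested. The median of the haem synthesis list ranged from -0.08 to 0.13 over the alternatives. No paired analysis was possible because the 2 groups share no replicate number in the titles. Low signal over background limits what can be said of Slc4a1, and of Alas2 and Hbb-b2 on the arrays where they were not detected.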

Other observations

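Globins outside the red cell were also on the array. Cygb, cytoglobin, which fibroblast-like cells make, was at 8.62 ± 0.37 in VP16LXRa and 8.16 ± 1.43 in control tumours (SD, n = 4 each), a difference of 0.46 (SE 0.62). The lower control mean rests on control 3, at 6.09. The other controls were at 8.38 to 9.24 and the VP16LXRa tumours at 8.11 to 8.98. Ngb, neuroglobin, differed by 0.32 (SE 0.20) and was detected on 4 VP16LXRa arrays and 1 control array. Hamp, the iron hormone hepcidin, chosen after its values were seen, was at 7.54, 5.93, 6.42 and 5.40 in VP16LXRa 5, 6, 7 and 8, and at 5.04, 5.11, 5.18 and 4.89 in controls 1, 2, 3 and 4. It was detected on all 4 VP16LXRa arrays and on 1 control array, so 3 of the 4 control levels were not above background.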
